A study of Homo sapiens with 9 samples.

Results

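Amino acid transporters of 7 solute carrier families, SLC1, SLC3, SLC6, SLC7, SLC36, SLC38 and SLC43, were followed in A549 cells after RNA interference against MED23 or ELK1. The genes were chosen by symbol, with no measured value in the rule, and 56 of the 19775 genes with a probe set of their own belonged to these families. Each gene was represented by its brightest probe set that names no other gene. Of the 56 genes, 31 had a mean above the median of all probe sets, a log2 signal of 6.05, and were tested, and 25 lay below it and are called dim here.

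Cells take up amino acids that they cannot make, and exchange those they hold for others, through carriers of these families. Several SLC7 exchangers work only as a pair with a heavy chain, 4F2hc (SLC3A2) or rBAT (SLC3A1), which brings them to the cell surface. Among them xCT (SLC7A11) imports cystine, the source of cysteine for glutathione, in exchange for glutamate, and LAT1 (SLC7A5) imports leucine in exchange for glutamine. In lung and other tumours these carriers are known for feeding glutathione synthesis, mTORC1 signalling and the use of glutamine, and many of their genes are targets of ATF4, the transcription factor of the amino acid stress response.

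The measurement covered 9 Affymetrix arrays, all of A549, a human lung adenocarcinoma line, cultured in serum-containing medium and given no other treatment. In the si-Med23 group 3 samples each received a different RNA interference oligo against MED23, called A, B and C, and in the si-Elk1 group 3 samples each received 1 of 3 oligos against ELK1, likewise called A, B and C. The si-Ctrl group held 3 samples with a control oligo. MED23 belongs to Mediator, which carries signals from DNA-bound factors to RNA polymerase II. ELK1 is an ETS family factor that ERK activates and that can bind MED23. The comparisons ask which transporter transcripts change when either factor is reduced, in a series on the need of Ras-active lung cancer cells for MED23. The spread within a knockdown group includes differences between oligos, and the labels do not tell whether the controls came from separate cultures. The p-values therefore measure only the spread among these samples, and that spread may be technical. In RNA pooled over a culture, fewer cells with a transcript and less of it per cell cannot be told apart.

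On their brightest probe sets MED23 fell to 18.2% of si-Ctrl in the si-Med23 group (limma adjusted p = 0.00184). ELK1 fell to 23.8% of si-Ctrl in the si-Elk1 group (adjusted p = 0.00684), a log2 fold change of -2.07. A second ELK1 probe set above the filter level gave a smaller fall there, at -1.08 ± 0.29 (SE). Other MED23 probe sets above that level gave -1.36 ± 0.42 and -3.44 ± 0.71 in si-Med23. All 7 A549 markers measured were above the filter, and 6 of them, or 85.7%, were higher in si-Med23 than in si-Ctrl, against 20.3% of all genes tested. Of the markers of other cell types, 3 of 4 blood genes, 1 of 3 endothelial genes and 0 of 4 fibroblast genes were above the filter, and PTPRC, which marks white blood cells, lay below it on all 9 arrays. The 3 blood genes above the filter were CD14, CD3E and HBB. Of these 1, or 33.3%, was higher in each knockdown than in si-Ctrl, against 20.3% (si-Med23) and 3.07% (si-Elk1) of all genes. CD14 averaged 9.33 in si-Med23, 9.45 in si-Elk1 and 7.68 in si-Ctrl. The mean log2 signal of the blood list ran from 6.03 to 7.04 over the si-Med23 arrays and from 6.85 to 7.22 over the si-Elk1 arrays. Over the si-Ctrl arrays it ran from 5.67 to 6.88, and its part in the results was not tested. The mean of the fibroblast list ran from 3.91 to 4.21 in si-Med23, 5.32 to 6.25 in si-Elk1 and 4.38 to 5.92 in si-Ctrl. In that order DCN averaged 3.51, 7.37 and 5.99, and COL1A2 3.42, 6.06 and 5.15. LUM averaged 5.32, 5.62 and 5.05, and PDGFRB 4.06, 3.66 and 4.97. The part of these differences in the results was not tested. The poly-A spikes, foreign transcripts that are added to RNA before labelling, averaged 9.22 ± 0.12 in si-Med23, 8.25 ± 0.29 in si-Elk1 and 7.61 ± 0.20 in si-Ctrl (log2 signal, SD, n = 3 each). The hybridization controls, which are added just before hybridization, averaged 12.33 ± 0.06, 12.01 ± 0.10 and 11.83 ± 0.06 in the same order of groups. Scaling on either set shifts every gene of an array alike, by -1.61 or -0.50 for si-Med23 against si-Ctrl, by -0.64 or -0.18 for si-Elk1 against si-Ctrl, and by -0.97 or -0.32 for si-Med23 against si-Elk1 (log2, poly-A spikes first). The part that the spikes' own differences play in the results cannot be told apart from the groups.

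After MED23 knockdown, 6 of the 31 transporters passed the test, 3 higher and 3 lower. The lower genes were SLC7A11 (xCT), at 30.5% of si-Ctrl, SLC38A1, which encodes the sodium-coupled glutamine carrier SNAT1, at 25.9%, and SLC7A8, the LAT2 exchanger, which was lower by less. SLC7A7 (the y+LAT1 exchanger, 2.39-fold), SLC36A1 (the proton-coupled carrier PAT1, 1.84-fold) and SLC6A6 (the taurine carrier TauT, 1.48-fold) were higher. Among all 12616 genes tested 39.8% passed in this comparison, 20.3% higher and 19.5% lower, so the transporters' 19.4% was below that background. Their median log2 fold change was -0.046, against 0.091 over all genes tested. The split of 3 higher and 3 lower became 3 and 2 after quantile normalization and 7 and 2 when arrays were centred on their medians. It became 0 and 13 when they were scaled on the hybridization controls, and 0 and 30 when scaled on the poly-A spikes. Over all 12616 genes it was 2718 higher and 2241 lower after quantile normalization, and 4758 and 1681 after centring on medians. Scaling on the hybridization controls gave 409 and 5205 of all genes, and on the poly-A spikes 18 and 11880.

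After ELK1 knockdown 3 of the 31 transporters passed, all lower: SLC1A4, the neutral amino acid carrier ASCT1, at 65.7%, SLC3A1, the heavy chain rBAT, at 58.6%, and SLC6A15, the branched-chain amino acid carrier B0AT2, at 38.3% of si-Ctrl. None was higher by the limma test, although 5 were higher and 7 lower at an unadjusted p under 0.05, and limma with a trended, robust prior called 1 higher. Of all 12616 genes 1951 were higher and 1211 lower at an unadjusted p under 0.05. Over all genes 4.26% passed, 3.07% higher and 1.19% lower, against 9.68% of the transporters. All of these calls lay close to the threshold, with adjusted p of 0.0333, 0.0416 and 0.049999. SLC3A1 and SLC6A15 missed it whichever of the 9 arrays was left out, with adjusted p of 0.0525 to 0.124 and of 0.0503 to 0.128. The split of 0 higher and 3 lower was the same when arrays were centred on their medians or scaled on the hybridization controls. It became 1 and 3 after quantile normalization, and 0 and 12 when scaled on the poly-A spikes. Over all 12616 genes it was 441 higher and 215 lower after quantile normalization, and 239 and 326 after centring on medians. Scaling on the hybridization controls gave 166 and 258 of all genes, and on the poly-A spikes 95 and 4898.

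**Figure D1:**
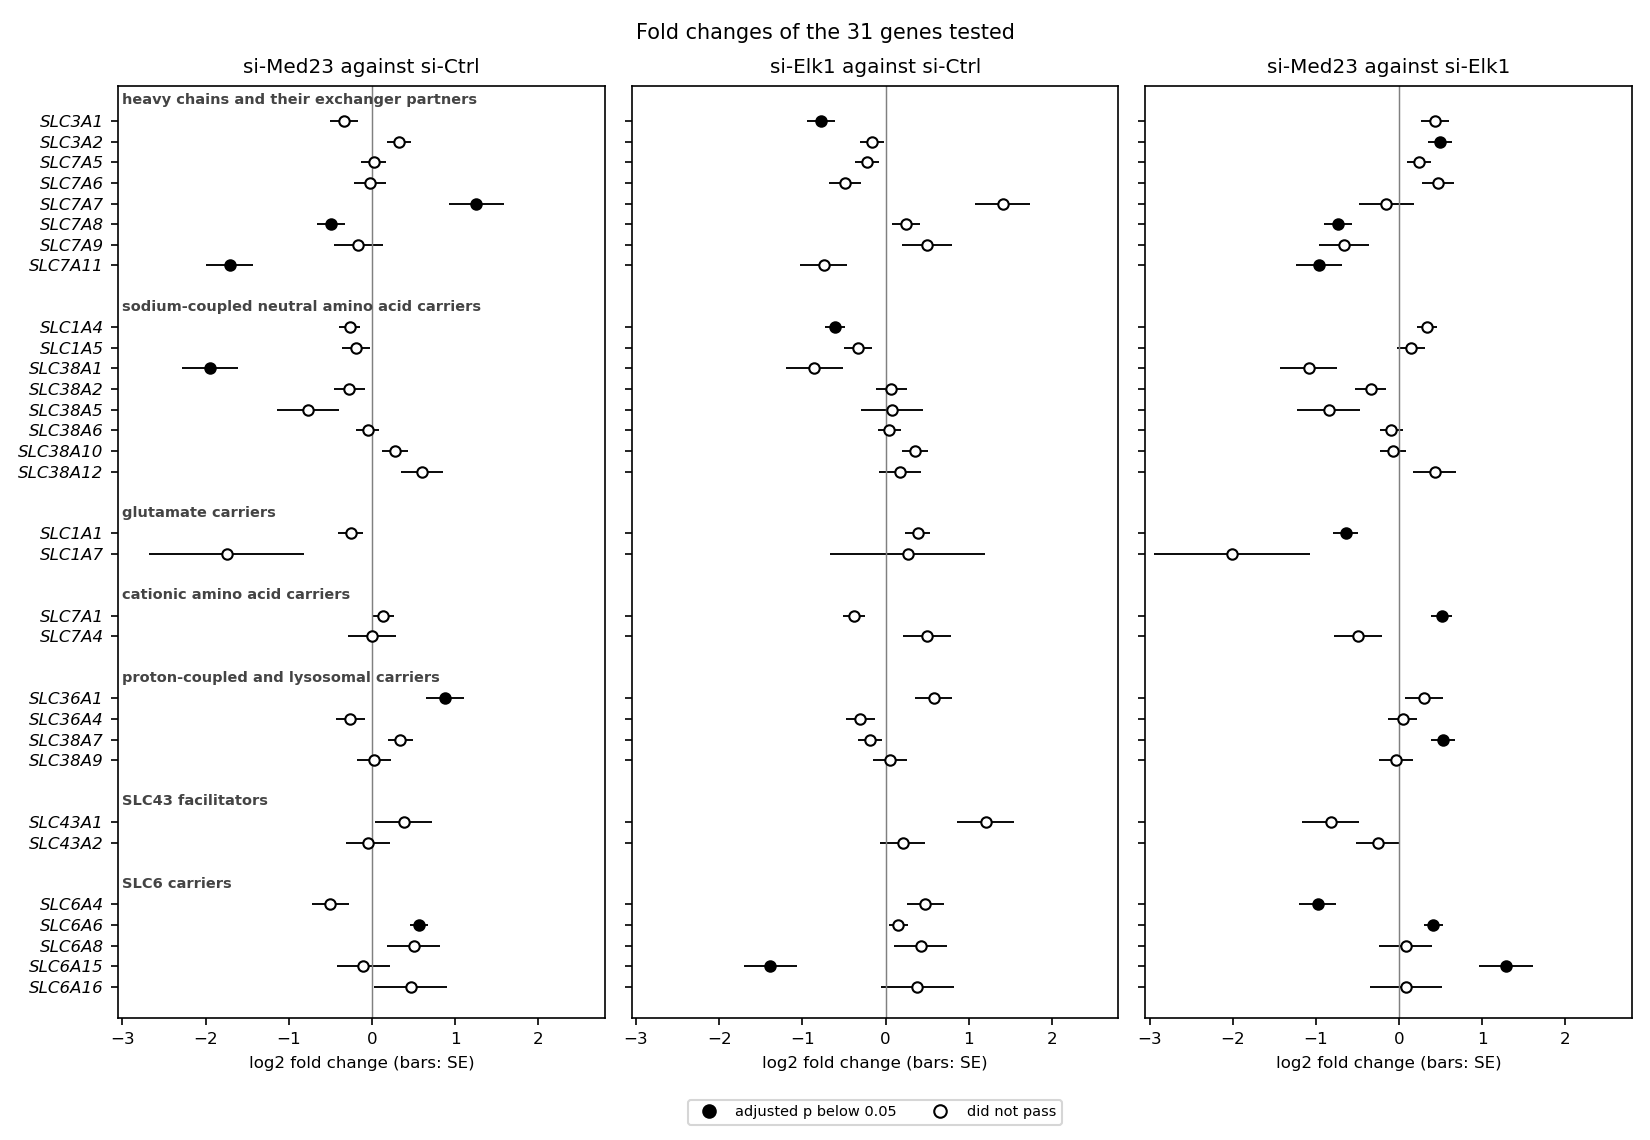
Log2 fold change of the 31 tested genes in si-Med23 against si-Ctrl (left), si-Elk1 against si-Ctrl (middle) and si-Med23 against si-Elk1 (right), with bars of 1 standard error and filled points for an adjusted p below 0.05. SLC38A1 and SLC7A11 lie far to the left of the other filled points in the left panel, at -1.95 and -1.71.

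Between the knockdowns, si-Med23 against si-Elk1, 9 of the 31 genes differed, 5 higher and 4 lower in si-Med23, which is 29.0% against 21.7% of all genes (9.54% higher and 12.2% lower). SLC6A15, SLC38A7, SLC7A1, SLC3A2 and SLC6A6 were higher in si-Med23, and SLC6A4, SLC7A11, SLC7A8 and SLC1A1 were lower. The split became 3 and 3 after quantile normalization, 12 and 1 when arrays were centred on their medians, 0 and 9 when scaled on the hybridization controls, and 0 and 24 when scaled on the poly-A spikes. Over all 12616 genes it was 1217 higher and 1163 lower after quantile normalization, and 4685 and 553 after centring on medians. Scaling on the hybridization controls gave 359 and 3943 of all genes, and on the poly-A spikes 33 and 10219. The si-Elk1 sample of oligo C stood apart from oligos A and B: without it this comparison called 35.6% of all genes, and 12 transporters, with SLC1A4 and SLC38A12 added among the higher and SLC38A1 among the lower.

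Short promoter windows are shown for 4 of the transporters that changed in some comparison, because they hold the 8-base sequence TGATGNAA, the core of the amino acid response element that ATF4 is known to bind. The windows are RefSeq's, of build GRCh38.p14, and run from 250 bases before to 50 after a gene's start. They cover 42 of the 56 genes with 64 windows, and a gene with several starts has several. The sequence was found on either strand in 6 of these 64 windows (9.38%), against 3.62% of 35116 windows of all genes. The genes with a match were SLC1A3, SLC1A4, SLC1A5, SLC38A1, SLC3A2 and SLC7A1. The genes not searched, for want of a window in the table used, were SLC1A2, SLC3A1, SLC38A3, SLC43A3, SLC6A2, SLC6A3, SLC6A6, SLC6A12, SLC6A15, SLC7A2, SLC7A3, SLC7A4, SLC7A11 and SLC7A13. Capitals mark the match in the windows below, each written 5′ to 3′ along its gene, and in SLC1A4 and SLC3A2 the match lies on the other strand. The windows lie at chr2:64989149-64989448 on the plus strand for SLC1A4, chr11:62881449-62881748 on the plus strand for SLC3A2, chr12:46266467-46266766 on the minus strand for SLC38A1 and chr13:29595639-29595938 on the minus strand for SLC7A1.
SLC1A4: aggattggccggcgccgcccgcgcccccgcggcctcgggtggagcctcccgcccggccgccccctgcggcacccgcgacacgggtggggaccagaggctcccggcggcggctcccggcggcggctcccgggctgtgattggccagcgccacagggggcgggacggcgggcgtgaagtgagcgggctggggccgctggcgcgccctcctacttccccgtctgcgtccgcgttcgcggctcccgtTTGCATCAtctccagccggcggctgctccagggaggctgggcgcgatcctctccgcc
SLC3A2: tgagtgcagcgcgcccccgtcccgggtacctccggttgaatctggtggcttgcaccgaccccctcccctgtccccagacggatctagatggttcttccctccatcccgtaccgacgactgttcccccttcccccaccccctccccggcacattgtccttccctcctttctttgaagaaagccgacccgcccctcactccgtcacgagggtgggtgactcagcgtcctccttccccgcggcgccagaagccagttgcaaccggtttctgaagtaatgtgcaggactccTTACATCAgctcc
SLC38A1: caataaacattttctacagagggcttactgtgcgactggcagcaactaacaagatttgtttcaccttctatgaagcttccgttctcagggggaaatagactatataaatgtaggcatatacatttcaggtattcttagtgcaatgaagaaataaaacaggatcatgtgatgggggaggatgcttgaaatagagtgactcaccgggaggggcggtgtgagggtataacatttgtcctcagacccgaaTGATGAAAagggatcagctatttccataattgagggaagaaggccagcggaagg
SLC7A1: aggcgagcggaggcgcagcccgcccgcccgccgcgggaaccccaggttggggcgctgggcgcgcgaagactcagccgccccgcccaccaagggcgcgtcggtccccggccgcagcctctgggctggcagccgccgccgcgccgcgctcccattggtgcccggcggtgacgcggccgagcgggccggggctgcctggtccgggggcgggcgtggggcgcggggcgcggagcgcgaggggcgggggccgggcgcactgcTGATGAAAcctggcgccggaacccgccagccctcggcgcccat
The 4 genes did not move alike: SLC38A1 was lower in si-Med23, SLC1A4 was lower in si-Elk1, and SLC3A2 and SLC7A1 differed only in the comparison of the knockdowns with each other. The antioxidant response sequence TGACNNNGC was in 10.9% of the transporter windows and 13.3% of all windows, and the ETS sequence CCGGAAGT in 1.56% and 4.14%, in the transporters only at SLC38A10. A match is a description of these letters, and no binding was measured here.

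Of the heavy chains and their exchanger partners 8 of 10 genes were tested, and SLC7A11 had the clearest change. Its log2 signal was 10.50, 10.70 and 10.38 with oligos A, B and C against MED23, 11.82, 11.86 and 10.79 with oligos A, B and C against ELK1, and 12.15, 12.07 and 12.48 in controls 1 to 3. All si-Med23 arrays were below every other array. The si-Elk1 arrays also lay below the controls, with oligo C below the other two and close to the si-Med23 level. The log2 fold change was -1.71 ± 0.28 (SE) in si-Med23 (limma adjusted p = 0.00331) and -0.75 ± 0.28 in si-Elk1 (adjusted p = 0.145), and the difference between the knockdowns was -0.97 ± 0.28 (adjusted p = 0.0405). That difference passed with 1 of the 9 arrays left out, oligo C against ELK1 (-1.32, adjusted p = 0.0021), and missed with each of the others (highest adjusted p = 0.13), while the change against control passed in all 9.

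The 3 probe sets of SLC7A11 disagreed. A second one read 9.82, 9.69 and 10.20 in si-Med23, 11.50, 11.67 and 10.15 in si-Elk1 and 11.87, 11.69 and 12.14 in si-Ctrl, with a log2 difference of -1.996 between si-Med23 and si-Ctrl. The third read 10.10, 10.52 and 10.23 in si-Med23, 10.14, 10.14 and 10.01 in si-Elk1 and 10.26, 10.28 and 10.07 in si-Ctrl. It gave a difference of 0.08 ± 0.18 (SE) for si-Med23, and its groups overlapped, so the fall of SLC7A11 was seen by 2 of its 3 probe sets. With the mean of the 3 the log2 fold change was -1.21 (adjusted p = 0.00647).

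SLC3A2, the heavy chain that xCT and LAT1 need, did not fall with SLC7A11. It read 13.02, 12.90 and 12.62 in si-Med23, 12.27, 12.25 and 12.55 in si-Elk1 and 12.49, 12.59 and 12.48 in si-Ctrl. Every si-Med23 array was above every other array, while the si-Elk1 arrays overlapped the controls. It was higher in si-Med23 than in si-Elk1 by 0.49 ± 0.14 (adjusted p = 0.043), and missed the threshold against control, at 0.33 ± 0.14 (adjusted p = 0.0978) in si-Med23 and -0.16 ± 0.14 (adjusted p = 0.5) in si-Elk1. The difference between the knockdowns passed with 2 of the 9 arrays left out in turn (highest adjusted p = 0.132), missed after quantile normalization (0.38, adjusted p = 0.0659) and turned to -0.48 with poly-A spike scaling. In si-Med23 against control SLC3A2 passed as higher when arrays were centred on their medians (0.56, adjusted p = 0.0149) and as lower with poly-A spike scaling (-1.28, adjusted p = 0.000105). LAT1 (SLC7A5), its partner for leucine uptake, read 14.21, 14.04 and 13.83 in si-Med23, 13.70, 13.65 and 14.01 in si-Elk1 and 13.99, 14.10 and 13.94 in si-Ctrl. The 3 groups overlapped, and its log2 fold changes were 0.02 ± 0.15 in si-Med23 and -0.22 ± 0.15 in si-Elk1.

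SLC7A7, whose exchanger y+LAT1 moves cationic and neutral amino acids and is known for lysinuric protein intolerance, rose in si-Med23. The log2 signal was 10.83, 12.30 and 11.55 in si-Med23, 11.67, 11.60 and 11.88 in si-Elk1 and 10.34, 10.58 and 9.99 in si-Ctrl. Both knockdowns lay above all controls, and the 3 oligos against MED23 spread over 1.47 log2 units. The fold change was 1.25 ± 0.33 in si-Med23 (adjusted p = 0.0178) and 1.41 ± 0.33 in si-Elk1 (adjusted p = 0.0506), and the knockdowns differed by -0.16 ± 0.33 (adjusted p = 0.751). The si-Med23 call was lost without control replicate 3 (adjusted p = 0.0639), and with poly-A spike scaling the fold change was -0.36.

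SLC7A8 (LAT2), an exchanger of small and large neutral amino acids, read 7.54, 7.85 and 7.84 in si-Med23, 8.62, 8.50 and 8.33 in si-Elk1 and 8.38, 7.92 and 8.39 in si-Ctrl. The si-Med23 arrays were the lowest of the 9, but control replicate 2 lay only slightly above them. The log2 fold change was -0.49 ± 0.17 in si-Med23 (adjusted p = 0.0461), a call that held with 2 of the 9 arrays left out in turn, control replicate 2 and oligo C against ELK1, and was lost with each of the others (highest adjusted p = 0.145). It was also lost after quantile normalization (adjusted p = 0.12), with arrays centred on their medians (adjusted p = 0.227), with no filter (adjusted p = 0.103) and with a trended, robust prior (adjusted p = 0.0755), and the mean of its probe sets lay below the filter. The knockdowns differed by -0.74 ± 0.17 (adjusted p = 0.0204), which missed with arrays centred on their medians (adjusted p = 0.107).

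SLC3A1, the heavy chain of the renal cystine exchanger, read 8.92, 9.04 and 8.91 in si-Med23, 8.42, 8.73 and 8.42 in si-Elk1 and 9.01, 9.60 and 9.28 in si-Ctrl. The si-Elk1 arrays were below all others, and the si-Med23 and control arrays overlapped. The log2 fold change was -0.77 ± 0.17 in si-Elk1 (adjusted p = 0.0416) and -0.34 ± 0.17 in si-Med23 (adjusted p = 0.139). The other 2 probe sets of SLC3A1 were dim and did not fall in si-Elk1, at 2.05 ± 0.32 and 0.11 ± 0.38 against si-Ctrl. Its partner SLC7A9 (b0,+AT) did not pass, with log2 fold changes of -0.16 ± 0.30 in si-Med23 and 0.50 ± 0.30 in si-Elk1, nor did SLC7A6 (y+LAT2), with -0.02 ± 0.19 and -0.48 ± 0.19 in the same order.

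**Figure D2:**
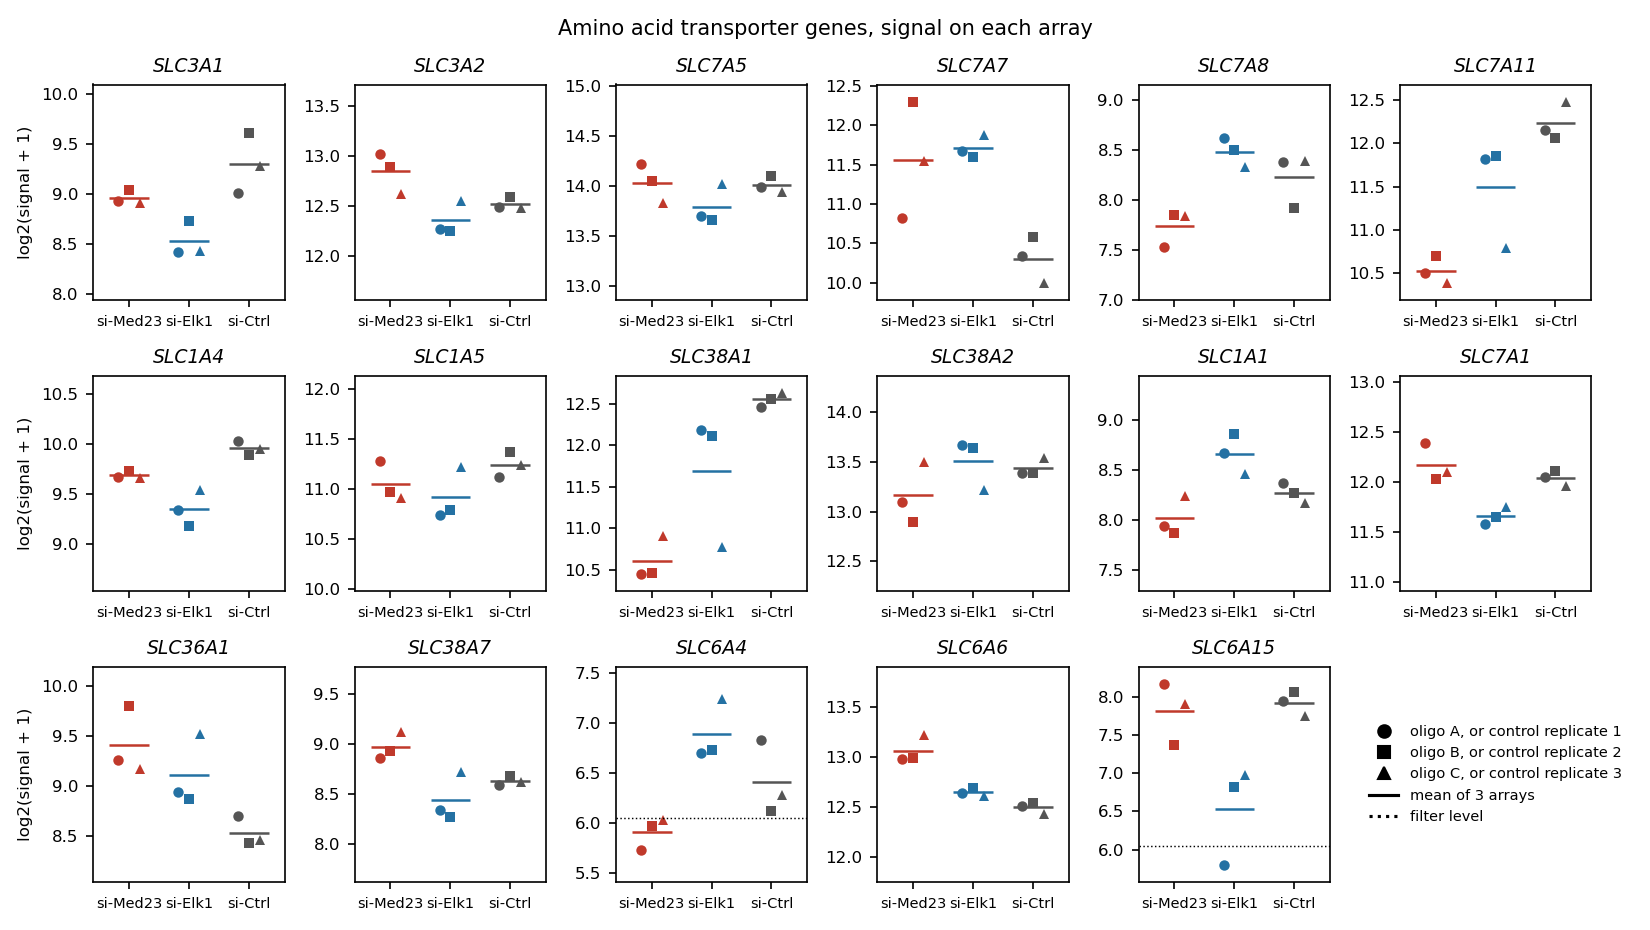
Log2(signal + 1) of the 17 genes described array by array, with si-Med23, si-Elk1 and si-Ctrl from left to right, a marker for each oligo or control replicate, a line at the mean of 3 arrays and a dotted line at the filter level. In SLC7A11 and SLC38A1 the si-Elk1 sample of oligo C (triangle) sits near the si-Med23 arrays, at 10.79 and 10.78, below the samples of oligos A and B.

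Among the sodium-coupled carriers of glutamine and other neutral amino acids 8 of 11 genes were tested. Of these 8, SLC38A1 alone passed in si-Med23 against control, or 12.5% lower and 0 higher, against 19.5% lower and 20.3% higher over all genes. The log2 signal was 10.45, 10.46 and 10.91 in si-Med23, 12.19, 12.11 and 10.78 in si-Elk1 and 12.46, 12.56 and 12.63 in si-Ctrl. All si-Med23 arrays were far below the controls, and of the si-Elk1 arrays oligo C alone lay within the si-Med23 range. The log2 fold change was -1.95 ± 0.34 in si-Med23 (adjusted p = 0.00429) and -0.86 ± 0.34 in si-Elk1 (adjusted p = 0.165). The knockdowns differed by -1.09 ± 0.34 (adjusted p = 0.0523), and by -1.54 (adjusted p = 0.00159) without oligo C against ELK1. On that array MED23 itself read 8.18, against 8.87 and 9.02 with oligos A and B and 9.05 to 9.27 in si-Ctrl, and the part of this in the result was not tested. The other 2 probe sets of SLC38A1 above the filter level went the same way in si-Med23, by -1.56 and -1.12.

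The closely related SLC38A2 (SNAT2), which carries the same substrates and is known to rise on amino acid starvation, did not pass in any comparison. It read 13.10, 12.89 and 13.50 in si-Med23, 13.67, 13.63 and 13.21 in si-Elk1 and 13.38, 13.39 and 13.54 in si-Ctrl, and the groups overlapped. SLC1A5 (ASCT2), the main glutamine importer of many tumour lines, read 11.28, 10.96 and 10.91 in si-Med23, 10.74, 10.78 and 11.22 in si-Elk1 and 11.12, 11.37 and 11.24 in si-Ctrl. Its groups overlapped too, and its log2 fold changes were -0.19 ± 0.17 in si-Med23 (adjusted p = 0.394) and -0.33 ± 0.17 in si-Elk1 (adjusted p = 0.26).

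SLC1A4 (ASCT1), an exchanger of serine, alanine and cysteine, read 9.67, 9.73 and 9.67 in si-Med23, 9.34, 9.18 and 9.54 in si-Elk1 and 10.03, 9.90 and 9.95 in si-Ctrl. No group overlapped another, with si-Elk1 lowest and the controls highest. It was lower in si-Elk1, with a log2 fold change of -0.61 ± 0.12 (adjusted p = 0.0333), a call kept with 4 of the 9 arrays left out in turn (highest adjusted p = 0.111). In si-Med23 the fold change of -0.27 ± 0.12 missed (adjusted p = 0.107). The remaining carriers of this group did not pass in any comparison under the deposited scaling. In si-Med23 and si-Elk1 the log2 fold changes were -0.77 and 0.08 for SLC38A5 (SNAT5), and -0.05 and 0.04 for SLC38A6. They were 0.28 and 0.36 for SLC38A10, and 0.60 and 0.18 for SLC38A12. Other probe sets of SLC38A10 above the filter level gave 0.62 ± 0.15, 1.33 ± 0.55 and 0.05 ± 0.48 in si-Med23. There SLC38A10 passed as higher when arrays were centred on their medians (0.51, adjusted p = 0.0223). It passed as lower with poly-A spike scaling (-1.33, adjusted p = 0.000123).

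Of the glutamate carriers 2 of 5 genes were tested. SLC1A1 (EAAT3), which takes up glutamate, aspartate and cysteine, read 7.93, 7.87 and 8.24 in si-Med23, 8.66, 8.85 and 8.46 in si-Elk1 and 8.37, 8.27 and 8.17 in si-Ctrl. On this probe set the knockdowns lay on opposite sides of the control mean, with the si-Elk1 arrays above all others and the si-Med23 arrays overlapping the controls. The difference between the knockdowns was -0.64 ± 0.15 (adjusted p = 0.0219), and neither passed against control, at -0.25 ± 0.15 in si-Med23 and 0.39 ± 0.15 in si-Elk1. A second probe set of SLC1A1, with a mean of 6.23, put both knockdowns above the control mean, by 1.67 ± 0.70 and 2.09 ± 0.70. On it 2 control arrays lay below the filter level, and the knockdowns differed by -0.42 ± 0.70. SLC1A7 (EAAT5) had a log2 fold change of -1.75 ± 0.93 in si-Med23 that did not pass, and the oligo A array, at 2.32, was below the filter level.

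The cationic carriers SLC7A1 (CAT1), which imports arginine and lysine, and its relative SLC7A4 were tested, of 5 genes in the group. SLC7A1 read 12.39, 12.03 and 12.10 in si-Med23, 11.58, 11.65 and 11.75 in si-Elk1 and 12.05, 12.11 and 11.96 in si-Ctrl. The si-Elk1 arrays were below all others, and the si-Med23 arrays overlapped the controls. It was higher in si-Med23 than in si-Elk1 by 0.51 ± 0.13 (adjusted p = 0.0273), with poly-A spike scaling -0.46, and missed in si-Elk1 against control at -0.38 ± 0.13 (adjusted p = 0.117). SLC7A4 did not pass in any comparison, with 0.00 ± 0.29 in si-Med23 and 0.50 ± 0.29 in si-Elk1.

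All 4 proton-coupled and lysosomal carriers were tested, and SLC36A1 changed. PAT1, its product, exports small neutral amino acids from lysosomes with protons and is known to act with mTORC1. The log2 signal was 9.25, 9.80 and 9.16 in si-Med23, 8.94, 8.86 and 9.52 in si-Elk1 and 8.70, 8.42 and 8.46 in si-Ctrl. Both knockdowns lay above every control, and they overlapped each other. The fold change was 0.88 ± 0.22 in si-Med23 (adjusted p = 0.0156), which missed without control replicate 3 (adjusted p = 0.0521) and turned to -0.73 with poly-A spike scaling, and 0.58 ± 0.22 in si-Elk1 (adjusted p = 0.155). With the mean of its 2 probe sets, of which the other was dim, the si-Med23 fold change missed, at 0.43 (adjusted p = 0.416).

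SLC38A7 (SNAT7), the lysosomal exporter of glutamine and asparagine, read 8.86, 8.93 and 9.12 in si-Med23, 8.34, 8.27 and 8.72 in si-Elk1 and 8.59, 8.68 and 8.62 in si-Ctrl. The si-Med23 arrays were above all others, and the si-Elk1 arrays fell on both sides of the controls. The knockdowns differed by 0.53 ± 0.15 (adjusted p = 0.0361). That call held with 1 of the 9 arrays left out, oligo C against ELK1 (adjusted p = 0.00547). It was lost with each of the others (highest adjusted p = 0.118), and the difference turned to -0.44 with poly-A spike scaling. Other probe sets of SLC38A7 above the filter level gave smaller differences between the knockdowns, of 0.13 ± 0.23 and 0.24 ± 0.25. They put si-Elk1 above si-Ctrl by 0.23 and 0.11, against -0.19 on the probe set used. SLC38A9, the lysosomal arginine sensor of mTORC1, had log2 fold changes of 0.02 ± 0.21 in si-Med23 and 0.05 ± 0.21 in si-Elk1, and SLC36A4 (PAT4) of -0.26 ± 0.17 and -0.30 ± 0.17 in the same order. Neither passed in any comparison.

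**Figure D3:**
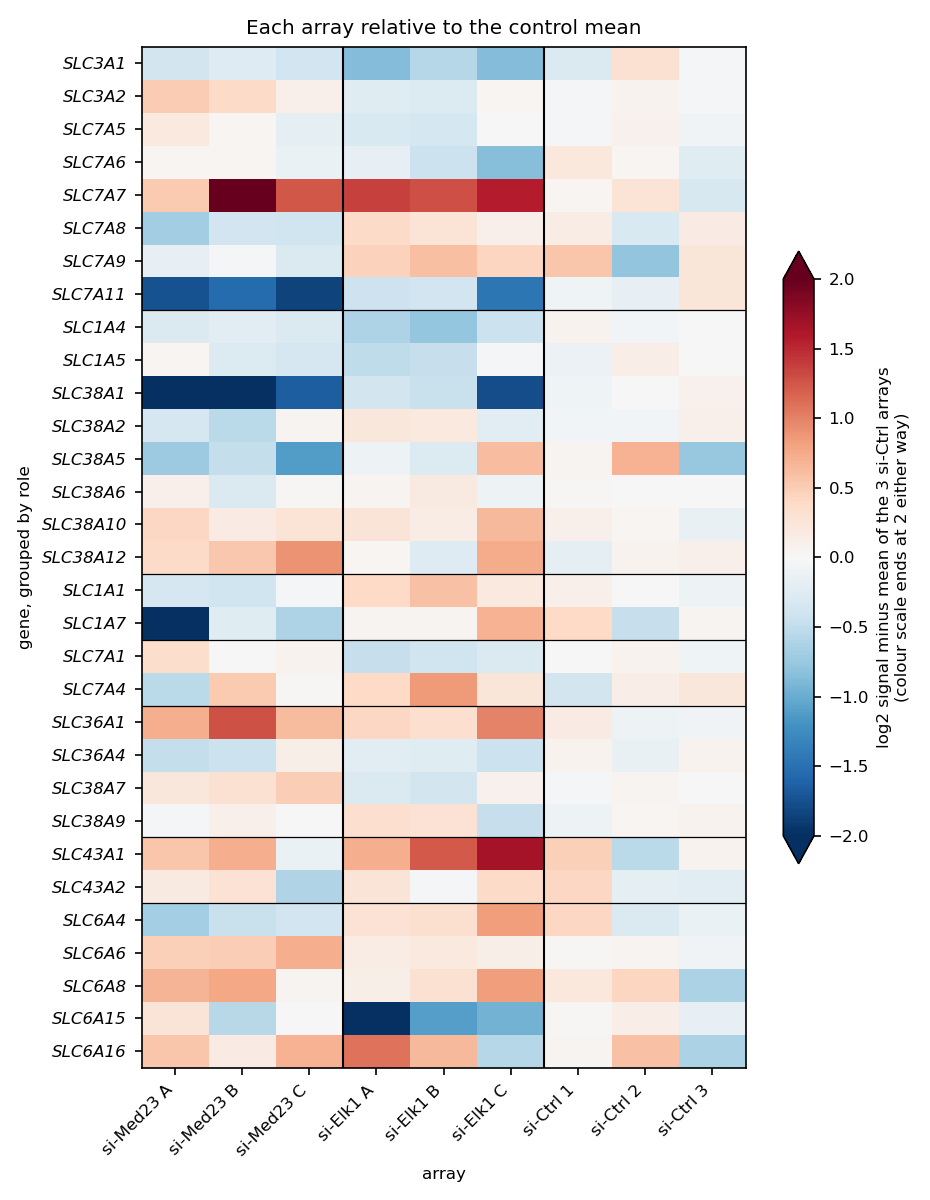
Log2 signal of each array minus the mean of the 3 si-Ctrl arrays for the 31 tested genes, grouped by role with horizontal lines, with arrays of si-Med23, si-Elk1 and si-Ctrl from left to right. SLC7A7 is red and SLC7A11 and SLC38A1 are blue on all 6 knockdown arrays, the blue being faint with oligos A and B against ELK1.

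The facilitators of the SLC43 family carry large neutral amino acids without sodium, and 2 of 3 genes were tested. SLC43A1 (LAT3) had log2 fold changes of 0.38 ± 0.34 in si-Med23 and 1.21 ± 0.34 in si-Elk1, where it missed the threshold (adjusted p = 0.0788). SLC43A2 (LAT4) had -0.05 ± 0.27 in si-Med23 and 0.21 ± 0.27 in si-Elk1.

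Of the 18 SLC6 genes, carriers of neurotransmitters, amino acids and osmolytes that run on sodium and chloride, 5 were tested. SLC6A6, which takes up taurine, read 12.98, 12.99 and 13.22 in si-Med23, 12.65, 12.69 and 12.61 in si-Elk1 and 12.51, 12.54 and 12.43 in si-Ctrl. No group overlapped another, with si-Med23 highest and the controls lowest. The log2 fold change was 0.57 ± 0.11 in si-Med23 (adjusted p = 0.00637), which passed with each of the 9 arrays left out but missed with the mean of its probe sets (0.31, adjusted p = 0.293) and turned to -1.04 with poly-A spike scaling, and 0.15 ± 0.11 in si-Elk1 (adjusted p = 0.412). The knockdowns differed by 0.41 ± 0.11 (adjusted p = 0.0346), which passed with 1 of the 9 arrays left out (highest adjusted p = 0.101) and came to -0.56 with poly-A spike scaling and -0.022 with the mean of its probe sets.

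SLC6A15, whose product takes up leucine, isoleucine, valine and proline, read 8.17, 7.37 and 7.91 in si-Med23, 5.79, 6.82 and 6.98 in si-Elk1 and 7.95, 8.06 and 7.75 in si-Ctrl. The si-Elk1 arrays were below all others, and oligo A lay below the filter level. The log2 fold change was -1.39 ± 0.32 in si-Elk1 (adjusted p = 0.049999) and -0.10 ± 0.32 in si-Med23 (adjusted p = 0.818), and the knockdowns differed by 1.28 ± 0.32 (adjusted p = 0.0268), a call kept with 5 of the 9 arrays left out in turn.

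SLC6A4, the serotonin carrier, read 5.73, 5.97 and 6.03 in si-Med23, 6.70, 6.73 and 7.24 in si-Elk1 and 6.83, 6.12 and 6.28 in si-Ctrl. The si-Med23 arrays were all below the filter level, and the difference between the knockdowns was -0.98 ± 0.22 (adjusted p = 0.0198), or -0.84 (adjusted p = 0.0214) with signals raised to that level. The other tested genes, SLC6A8 and SLC6A16, passed in no comparison. The creatine carrier SLC6A8 had log2 fold changes of 0.50 ± 0.32 in si-Med23 and 0.42 ± 0.32 in si-Elk1, and SLC6A16, an orphan carrier, of 0.47 ± 0.44 and 0.38 ± 0.44 in the same order.

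The 25 dim genes had mean log2 signals over the 9 arrays of 2.85 to 5.99. They were SLC1A2, SLC1A3, SLC1A6, SLC38A3, SLC38A4, SLC38A11, SLC43A3, SLC6A2, SLC6A3, SLC6A5, SLC6A7, SLC6A9, SLC6A11, SLC6A12, SLC6A13, SLC6A14, SLC6A17, SLC6A18, SLC6A19, SLC6A20, SLC7A2, SLC7A3, SLC7A10, SLC7A13 and SLC7A14. The dim gene nearest the level was SLC6A17, at 5.99, and the tested gene nearest to it was SLC38A5, at 6.14. With no filter none of the 25 passed by the limma test on its brightest probe set in any comparison. The lowest adjusted p was 0.055 in si-Med23 and 0.186 in si-Elk1 against si-Ctrl, and 0.0763 between the knockdowns. An unadjusted p under 0.05 was reached by 3, 1 and 3 of them in the same order of comparisons. Of all 19775 genes 18.4%, 0.602% and 4.95% passed the test with no filter, in that order. A second probe set of SLC6A13, with a mean of 5.62, was lower in si-Med23 than in si-Ctrl in a fit of all probe sets (-2.73 ± 0.36, limma adjusted p = 0.023). It read 4.63, 3.25 and 3.99 in si-Med23 and 6.86, 6.92 and 6.27 in si-Ctrl, while the brightest one gave -0.14. Among the tested genes SLC6A4, SLC1A7 and SLC38A5 had a group mean above the level in only 2 of the 3 groups.

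The sign of some changes depended on how arrays were scaled. The falls of SLC7A11, SLC38A1 and SLC7A8 in si-Med23, and those of SLC1A4, SLC3A1 and SLC6A15 in si-Elk1, kept their sign under the deposited, quantile, median, hybridization control and poly-A spike scalings. All of these passed the test under each of the 5, apart from SLC7A8 under the quantile and median scalings. The rises of SLC7A7, SLC36A1 and SLC6A6 in si-Med23 kept theirs under the first 4 and passed the test under the first 3. They turned to -0.36, -0.73 and -1.04 under the poly-A spike scaling. Scaling on the hybridization controls or the poly-A spikes lowers every fold change in both comparisons, and median centring does so in si-Elk1 (-0.13). A fall could not change sign under these scalings, so nothing about its firmness follows from the kept sign.

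**Figure D4:**
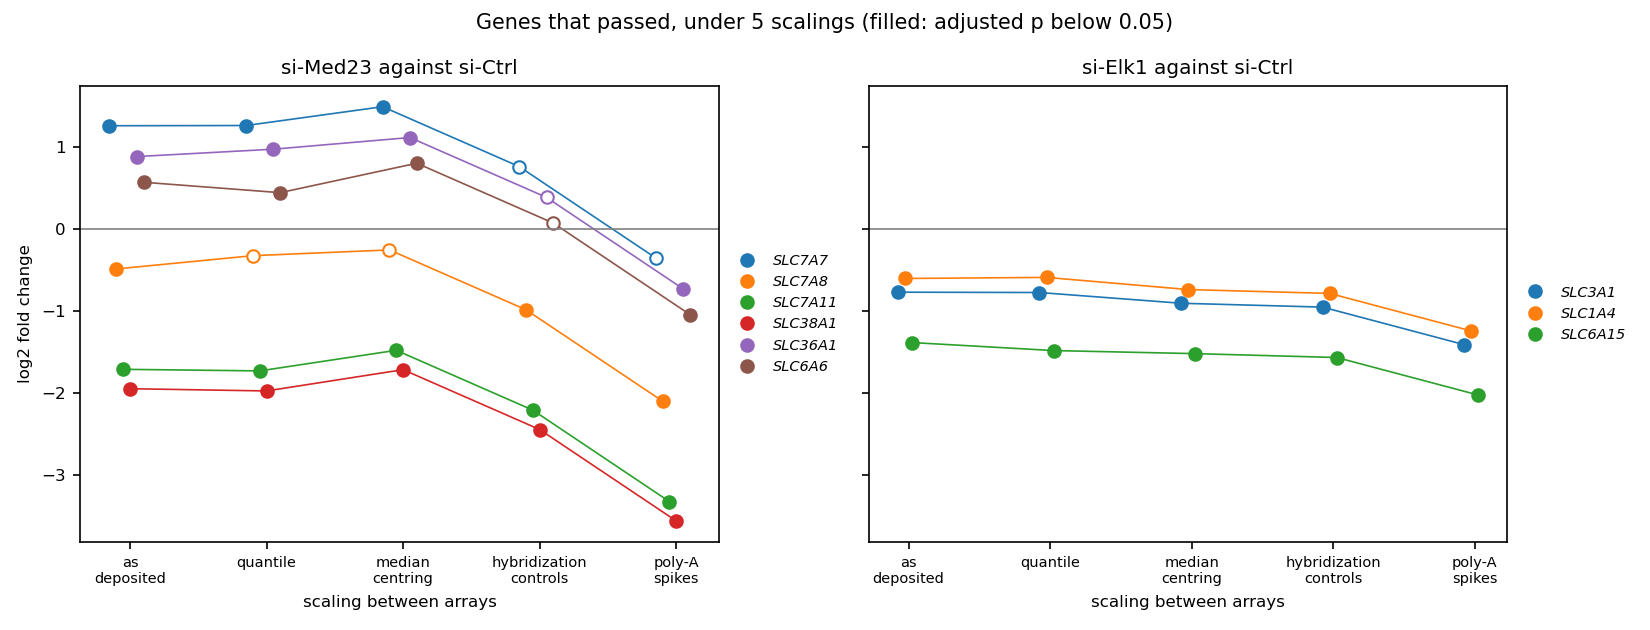
Log2 fold change of the genes that passed in si-Med23 against si-Ctrl (left) and in si-Elk1 against si-Ctrl (right) under 5 scalings between arrays, with filled points for an adjusted p below 0.05. SLC7A7, SLC36A1 and SLC6A6 lie above 0 in si-Med23 under 4 scalings and below 0 with the poly-A spikes, and the other genes lie below 0 under all 5.

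Genes that use or sense the amino acids moved by these carriers were counted in 6 further lists. Carriers of amino acids outside the 7 families, mostly of mitochondria, lysosomes and vesicles, had 3 of 15 genes higher and 0 lower in si-Med23 against si-Ctrl, beside 20.3% higher and 19.5% lower over all genes, so the share of this list that was higher was near the background. These were SLC25A29, the mitochondrial carrier of basic amino acids (1.70 ± 0.32, adjusted p = 0.00519), SLC17A5, the lysosomal carrier sialin (0.68 ± 0.17, adjusted p = 0.014), and SFXN3, a mitochondrial serine carrier (0.67 ± 0.20, adjusted p = 0.0274), and SLC25A29 also exceeded si-Elk1, by 1.09. No gene of this list passed in si-Elk1 against si-Ctrl by the limma test, and none reached an unadjusted p under 0.05 there. Of all 12616 genes 4.26% passed in that comparison, and 1951 were higher and 1211 lower at an unadjusted p under 0.05. With poly-A spike scaling SLC17A5 and SFXN3 turned to -0.93 and -0.94.

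In the glutathione list, the pathway that uses the cystine brought in by xCT, 5 of 16 genes were higher and 4 lower in si-Med23, or 31.2% and 25.0%, against 20.3% and 19.5% of all genes. The falls with the smallest p were those of NFE2L2, which encodes the antioxidant factor NRF2, a known regulator of SLC7A11 (-1.29 ± 0.25, adjusted p = 0.00582), of CHAC2, a glutathione-degrading cyclotransferase (-0.93 ± 0.22), and of GGCT (-0.51 ± 0.12), a cyclotransferase of gamma-glutamyl peptides. The rise with the smallest p was that of GPX1, a glutathione peroxidase (0.95 ± 0.15, adjusted p = 0.00285), which turned to -0.66 with poly-A spike scaling. In si-Elk1 only the glutaredoxin GLRX rose (0.76 ± 0.12, adjusted p = 0.0171), and GLRX was lower in si-Med23 than in si-Elk1 (-0.61). The share that passed was 6.25% in si-Elk1, against 4.26% of all genes. Between the knockdowns 2 genes of the list were higher, GPX1 and TXNRD1, and 1 lower, or 18.8% against 21.7% of all genes.

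The list of the GCN2-ATF4 amino acid response and of serine, asparagine, proline and cysteine synthesis had 3 of 29 genes higher and 9 lower in si-Med23, 2 higher and 1 lower in si-Elk1, and 1 higher and 3 lower between the knockdowns. The share that passed was 41.4% in si-Med23, 10.3% in si-Elk1 and 13.8% between the knockdowns, against 39.8%, 4.26% and 21.7% of all genes. The falls in si-Med23 with the smallest p were those of CEBPG, a partner of ATF4 (-0.62 ± 0.11), PSAT1, an enzyme of serine synthesis (-0.86 ± 0.17), ASNS, asparagine synthetase (-1.28 ± 0.25), and EIF2AK3, the kinase PERK (-0.93 ± 0.18), which came to 0.21 with the mean of its probe sets. In si-Elk1 the higher genes were CTH, which makes cysteine from cystathionine (1.31 ± 0.23), and DDIT4, an inhibitor of mTORC1 (1.01 ± 0.20), and CEBPG was lower (-0.48 ± 0.11). Between the knockdowns ATF5 was higher in si-Med23 by 1.29, and VLDLR, DDIT4 and EIF2AK3 were lower, with log2 differences of -0.83, -0.95 and -0.76.

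The cytosolic aminoacyl-tRNA synthetases, which load tRNAs with the imported amino acids, had 2 of 17 genes higher and 7 lower in si-Med23, or 11.8% and 41.2%, against 20.3% and 19.5% of all genes. TARS1 (-1.43 ± 0.19), LARS1 (-1.30 ± 0.18), NARS1 (-0.88 ± 0.18) and IARS1 (-0.57 ± 0.12), for threonine, leucine, asparagine and isoleucine, fell with the smallest p. In si-Elk1 GARS1, for glycine, alone passed and was lower (-0.60 ± 0.11), which is 5.88% of the list against 4.26% of all genes. Between the knockdowns HARS1 was higher in si-Med23 by 0.49, and LARS1, IARS1 and TARS1 were lower, with log2 differences of -1.06, -0.45 and -0.69, and the 23.5% that differed compare with 21.7% of all genes. TARS1 came to 0.49 between the knockdowns with the mean of its probe sets.

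Of 35 genes through which mTORC1 senses amino acids 6 were higher and 9 lower in si-Med23, 1 was higher and 0 lower in si-Elk1, and 3 were higher and 2 lower between the knockdowns. The share that passed was 42.9% in si-Med23, 2.86% in si-Elk1 and 14.3% between the knockdowns, against 39.8%, 4.26% and 21.7% of all genes. CASTOR2, related to the arginine sensor (0.85 ± 0.12), LAMTOR4, a subunit of the lysosomal Ragulator (1.09 ± 0.15), and NPRL2, a subunit of the inhibitor GATOR1 (0.82 ± 0.13), were higher in si-Med23, and LARS1, which is in this list too, was lower. With poly-A spike scaling these 3 turned to -0.76, -0.52 and -0.79. In si-Elk1 the arginine sensor CASTOR1 was higher (0.84 ± 0.19, adjusted p = 0.0492). Between the knockdowns the sestrin SESN3 was lower in si-Med23 (-2.25 ± 0.24) and the Rag GTPase RRAGA higher (0.44 ± 0.11).

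In glutamine and glutamate metabolism 2 of 10 genes were higher and 2 lower in si-Med23, none passed in si-Elk1 by the limma test (0 higher and 3 lower at an unadjusted p under 0.05), and 3 were higher between the knockdowns. Of all 12616 genes 4.26% passed in si-Elk1, and 1951 were higher and 1211 lower there at an unadjusted p under 0.05. The shares in si-Med23 were near the background of 20.3% higher and 19.5% lower over all genes, and between the knockdowns 30.0% were higher, against 9.54% of all genes. GLUD1, glutamate dehydrogenase (1.22 ± 0.14), and GLUL, glutamine synthetase (0.71 ± 0.14), were higher in si-Med23, and ASNS and PPAT, both users of glutamine, were lower, PPAT with a log2 fold change of -1.09 ± 0.23. GLUD1, GLUL and GMPS exceeded si-Elk1 by 1.16, 1.06 and 0.46. With poly-A spike scaling GLUD1 and GLUL turned to -0.39 and -0.90 against si-Ctrl.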

How the data were processed

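RNA of 9 samples was measured on Affymetrix arrays as labelled cRNA, and the group and oligo of each sample came from its labels. The values the authors deposited are intensities, 1 linear signal per probe set. RMA and MAS5 appear in the submitters' processing notes, without their roles. In the deposited values the 2% trimmed mean was 500.1 on every array, so a change in total RNA is not kept. The number of arrays limits the precision.

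Of 54675 probe sets 62 were controls and were left out of the tests, 41091 had 1 gene in the platform annotation, 1801 several and 11721 none. Signals were used as log2(value + 1). The filter level, the median over the means of all other probe sets, was log2 6.05 or a signal of 65.4, and 12616 genes lay above it. Differences were tested, two-sided, with limma 3.58.1 (lmFit, eBayes) in R 4.3.3, in 1 fit of the 9 arrays with no block, with Benjamini-Hochberg adjustment over all genes of a comparison and a threshold of 0.05. The fit was tested on simulated data. No 2 arrays held the same values. Deviations of same-numbered samples from their group means had correlations of -0.18 to 0.05, so the numbers do not pair the samples.

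The transporters and the other lists were chosen with earlier results of these data known. Every transporter above the filter is named, with its arrays where it passed in some comparison or was one of 6 named in advance (SLC7A11, SLC3A2, SLC7A5, SLC1A5, SLC38A2, SLC1A4). Of the other lists up to 4 genes with the smallest p per comparison are named. Promoter windows came from RefSeq. Alternatives were 4 scalings, no filter, a stricter one at percentile 70, averaging a gene's probe sets, no probe sets ending in _x_at or _s_at, a pseudocount of 16, signals raised to the filter level, a trended robust prior, only the 6 arrays compared, a replicate block and each array left out.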

Additional observations from a re-analysis of the deposited data

How the results depend on the processing

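The counts of transporters that passed moved with the scaling and with single arrays. The counts over all genes under each scaling are given above with each comparison. The 3 higher and 3 lower genes of si-Med23 against si-Ctrl became 7 higher with arrays centred on their medians, 0 higher and 13 lower with arrays scaled on the hybridization controls, 0 and 30 on the poly-A spikes, and 5 higher with only the 6 arrays compared. Leaving out single arrays gave 1 to 5 higher and 2 to 4 lower. For si-Elk1 against si-Ctrl, 1 gene in place of 0, SLC7A7, was higher after quantile normalization, with a pseudocount of 16, with signals raised to the filter level, the stricter filter, the trended robust prior and only 6 arrays. The 3 lower genes became 0 with only 6 arrays, averaged probe sets, no filter and no _x_at or _s_at probe sets, and 12 with poly-A spike scaling, and single arrays left out gave 0 to 1 higher and 0 to 1 lower. For si-Med23 against si-Elk1 the 5 higher and 4 lower genes became 12 and 1 with arrays centred on their medians, 0 and 9 with arrays scaled on the hybridization controls, 0 and 24 on the poly-A spikes, 1 and 1 with averaged probe sets, and 0 and 0 with no filter. There were 3 higher after quantile normalization and without _x_at and _s_at probe sets, 0 higher with only 6 arrays, and 0 to 7 higher and 0 to 5 lower with single arrays left out. With the replicate block, which the data give no reason to use, si-Elk1 against si-Ctrl had 0 lower genes and si-Med23 against si-Elk1 had 0 higher and 1 lower, and si-Med23 against si-Ctrl lost SLC7A8. Averaged probe sets lost SLC36A1, SLC6A6 and SLC7A8 in si-Med23 against si-Ctrl, and without _x_at and _s_at probe sets none was left above the filter level for SLC7A7 and SLC7A8. Between the knockdowns quantile normalization lost SLC3A2, SLC6A4 and SLC6A6, and centring on medians SLC1A1, SLC7A11 and SLC7A8.

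Left out in turn, every array but control replicate 2 and oligo C against ELK1 lost the si-Med23 call of SLC7A8, and only control replicate 3 lost others there, SLC36A1 and SLC7A7. The si-Elk1 call of SLC1A4 was lost without any control or without oligo A or B against ELK1. Of the 9 calls between the knockdowns, oligo A against MED23 left out lost all 9, oligo A or B against ELK1 all but SLC6A4, oligo B against MED23 5, oligo C against MED23 or any control 4, and oligo C against ELK1 none. The cause was not tested in any of these cases.

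Of 381 alternative values for single transporter calls 230 kept direction and side of the threshold, 143 kept direction only and 8 changed sign. With poly-A spike scaling, against si-Ctrl, si-Med23 values turned to -0.73 for SLC36A1, -1.04 for SLC6A6, -0.36 for SLC7A7, -0.76 for CASTOR2, -0.39 for GLUD1, -0.90 for GLUL, -0.66 for GPX1, -0.52 for LAMTOR4, -0.79 for NPRL2, -0.94 for SFXN3 and -0.93 for SLC17A5. Against si-Elk1 they turned to -0.44 for SLC38A7, -0.48 for SLC3A2, -0.56 for SLC6A6, -0.46 for SLC7A1, -0.51 for GMPS, -0.28 for GPX1, -0.49 for HARS1, -0.48 for NPRL2, -0.53 for RRAGA and -0.63 for TXNRD1. With averaged probe sets EIF2AK3 turned to 0.21 and NPRL2 to -0.13 against si-Ctrl, and SLC6A6 to -0.022, EIF2AK3 to 0.16, GMPS to -0.31, NPRL2 to -0.50 and TARS1 to 0.49 against si-Elk1. For SLC6A6 the other 3 probe sets above the filter level went the same way as the one used, and a dim one differed by -1.98 between the knockdowns. PPAT came to 0.069 against si-Ctrl without _x_at and _s_at probe sets. SLC38A1, SLC7A11 and SLC6A6 passed in si-Med23 against si-Ctrl with each array left out. Signals near the filter level, as of SLC6A4, SLC1A7 and SLC38A5, limit what can be said of those genes.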
